A study of Mus musculus with 16 samples.

Results

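The 8 genes described here encode the dystrophin-glycoprotein complex of the muscle fibre membrane: Dmd, Utrn, Dag1, Sgca, Sgcb, Sgcd, Sspn and Dtna. They were taken by gene name from the array design, which gave 19 probes among 55681 probes and 34650 gene names. All 8 genes had at least 1 probe bright enough to test, and 14 of the 19 probes were tested. The complex joins the actin cytoskeleton inside the fibre to laminin in the basement membrane outside it. Dystrophin binds actin and beta-dystroglycan, the sarcoglycans and sarcospan form a subcomplex that holds dystroglycan in the membrane, and alpha-dystrobrevin binds dystrophin on the cytoplasmic side. Loss of dystrophin or of a sarcoglycan causes muscular dystrophy in mice and humans, and utrophin, the paralogue of dystrophin, can take over part of its role.

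The study compared male mice lacking 1 of their 2 Eif6 alleles (Eif6+/-, "Het") with wild-type littermates (Eif6+/+, "WT") on the C57BL6 background, aged 8 to 16 weeks. Eif6 encodes a translation initiation factor that binds the large ribosomal subunit and keeps it from joining the small one. The deletion was in every cell of the animal, so an effect inside muscle fibres cannot be told apart from one that starts elsewhere. From the gastrocnemius, a calf muscle of mixed fibre type, total RNA was taken from the whole muscle, and a sucrose gradient separated RNA bound by 1 ribosome (monosome) from RNA bound by 2 or more (polysome). There were 3 WT and 3 Het whole muscle arrays, 3 and 3 polysome arrays, and 2 and 2 monosome arrays, 1 array for each RNA of each mouse. The question was whether losing an Eif6 allele shifts which messenger RNAs are held on polysomes, which is read here as loading: for each mouse, its polysome level minus its whole muscle level on the log2 scale.

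All levels below are log2 array signals after quantile normalization. Values for whole muscle and polysome come from the 12 arrays of those kinds normalized together, and values that include monosomes come from all 16 normalized together. A level can be compared between groups for one probe but not between probes. Fewer cells of a type and less RNA per cell cannot be told apart in such samples. Replicates in a group are separate mice, so p-values measure the spread between mice, and the number of arrays limits the precision. Monosomes were compared with the other RNA kinds without pairing the arrays of one mouse.

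Across the series, the share of spots well above background ran from 23.5% to 45.9% per array and the 75th percentile of the signal from 12.7 to 150.1. The 6 muscle fibre marker genes were well above background in every group, with summed log2 levels from 18.9 to 19.5 on the 12 arrays. The Het minus WT difference of the Eif6 probes was -0.91 and -1.06 in whole muscle and -1.31 and -1.21 on polysomes (limma adjusted p = 0.379, 0.379, 0.192 and 0.202). Array 2 of the WT polysomes and array 2 of the WT monosomes stood apart. Over 1171 transcripts with probes at least 500 bases apart, the 5′ probe was on median dimmer than the 3′ probe on the other 14 arrays (log2 difference -1.35 to -0.80) and brighter on these 2 (0.59 and 0.83). The mean correlation of WT polysome array 2 with the other arrays of its group was 0.902 and that between the 2 WT monosome arrays 0.780, against 0.949 to 0.979 for the arrays of the Het groups and of WT whole muscle. Values without them stand beside many of the results below.

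The probes are 60 bases long, and where they lie in a transcript decides what they read. The 4 sequences of dystrophin and utrophin are shown because the probes of Dmd gave different answers, and the 2 of delta-sarcoglycan because they read neighbouring stretches of the same message. They are in the orientation of the messenger RNA, with complete codons of the reading frame in capitals, as placed on the mm9 genome by the scanner files.
Dmd, base 450, actin-binding region, chrX:80596782-80596841, plus strand: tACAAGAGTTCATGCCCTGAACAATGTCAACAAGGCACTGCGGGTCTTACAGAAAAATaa
Dmd, base 4942, central rod, chrX:81132417-81132476, plus strand: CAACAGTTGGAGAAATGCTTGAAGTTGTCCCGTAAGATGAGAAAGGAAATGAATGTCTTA
Dmd, base 10335, carboxy-terminal region shared with short dystrophins, chrX:82389391-82389450, plus strand: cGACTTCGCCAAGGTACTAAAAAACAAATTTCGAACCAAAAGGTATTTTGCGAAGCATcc
Utrn, base 7910, rod, chr10:12221228-12221287, minus strand: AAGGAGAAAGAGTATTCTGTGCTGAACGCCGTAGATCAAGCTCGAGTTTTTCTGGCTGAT
Sgcd, base 467, extracellular region, chr11:46939058-46939117, minus strand: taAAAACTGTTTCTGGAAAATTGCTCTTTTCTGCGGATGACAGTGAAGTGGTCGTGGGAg
Sgcd, base 653, extracellular region, chr11:46794345-46794404, minus strand: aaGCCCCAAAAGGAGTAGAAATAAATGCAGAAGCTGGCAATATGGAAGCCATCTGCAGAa
The frame shown is the only one without a stop codon in 4 of the 6 probes, and in the other 2 it is the open frame that keeps step with the other probe or probes of the same transcript.

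The 5 probes that were not tested were dim in every group. The Dmd probe at base 10335 was well above background on 4 of 16 arrays, and 1 more probe each of Dmd, Utrn, Sgcd and Dtna on 0 of 16. Among the 14 tested probes, 6 were not well above background on some of the 16 arrays. The Utrn probe missed it on 1 Het whole muscle and 1 Het monosome array, the Dtna probe on 2 Het whole muscle arrays and on 1 monosome array of each genotype, a Dmd probe at base 2085 of a separate transcript on 5 of 16, and the Sgcd probe at base 653 on 1 Het whole muscle array. The probes of Dmd at 4942 and Sgcb at 2728 missed it only on WT monosome array 2.

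**Figure D1:**
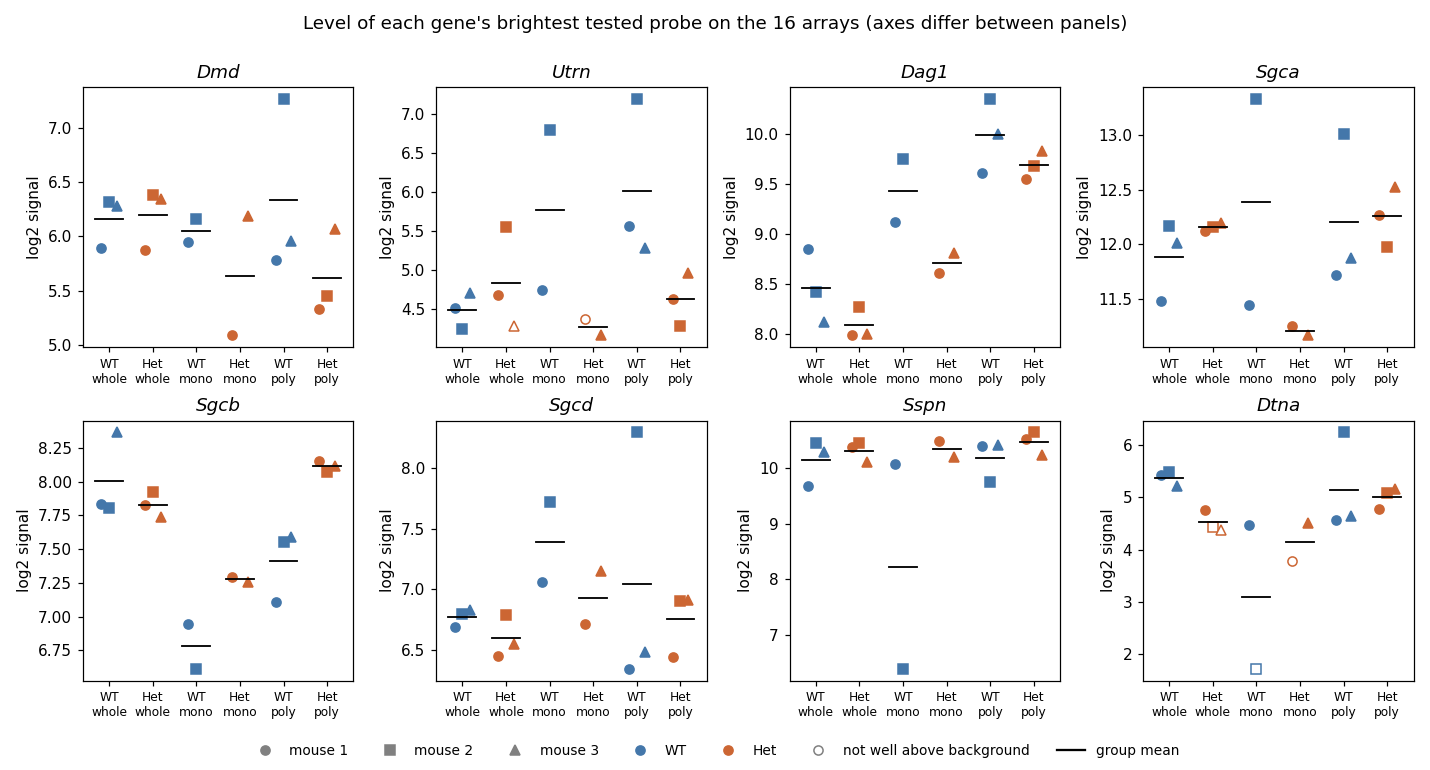
Log2 signal of each gene's brightest tested probe on the 16 arrays (y axis, its range differing between panels) by genotype and RNA kind (x axis), with mice as marker shapes, open markers where the probe was not well above background and bars at group means. Dag1 goes up from whole muscle through monosome to polysome means in both genotypes, Sgcb is lowest on monosomes, and the squares of WT mouse 2 leave their group on the polysome and monosome arrays of several genes.

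Between polysome and whole muscle RNA, 2 members differed, in opposite directions. Dag1 was 2.94-fold higher on polysomes and the rod probe of Dmd was 1.71-fold lower, each in 6 of 6 mice. By limma on the 6 per-mouse ratios, these 2 of 14 probes passed an adjusted p of 0.05, against 25.1% of all 19814 tested probes. The median difference of the 14 probes was -0.07, beside 0.09 for all probes.

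Dag1 encodes the precursor that is cut into alpha-dystroglycan, the laminin receptor, and beta-dystroglycan, its membrane anchor for dystrophin. Its only probe, at base 4232 (chr9:108108491-108108550, minus strand), read 9.15, 8.73 and 8.43 in the whole muscle of WT mice 1 to 3 and 8.29, 8.58 and 8.31 in that of Het mice 1 to 3. On polysomes it read 9.91, 10.64 and 10.30 in WT and 9.85, 9.98 and 10.13 in Het. No polysome array of either genotype was as low as any whole muscle array.

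Loading of Dag1 was 0.76, 1.92 and 1.87 in the WT mice and 1.56, 1.40 and 1.82 in the Het mice. WT mouse 1, with the lowest loading, had the highest whole muscle level and the lowest WT polysome level. The mean was 1.55 ± 0.20 (SE, n = 6 mice; limma adjusted p = 0.00306; exact sign-flip p = 0.0313, the smallest that 6 mice allow). The fitted value was 1.51 ± 0.28 in WT and 1.59 ± 0.28 in Het (adjusted p = 0.0165 and 0.0268), and the difference between genotypes, 0.08 ± 0.40, had a 95% interval from -0.85 to 1.02. Without WT mouse 2 the mean was 1.45 (adjusted p = 0.00659). Within a slide, where the whole muscle and polysome arrays came from different mice, polysome minus whole muscle was 1.63 on slide 1 and 1.56 on slide 2 (adjusted p = 0.406 and 0.0643).

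On monosomes the mean of Dag1 lay between those of the other RNA kinds. With all 16 arrays normalized together it read 9.12 and 9.75 on the WT monosome arrays and 8.61 and 8.81 on the Het ones, beside 7.98 to 8.85 over the 6 whole muscle arrays and 9.55 to 10.35 over the 6 polysome arrays. Monosome exceeded whole muscle by 0.80 ± 0.22 (SE; limma adjusted p = 0.0242), and polysome exceeded monosome by 0.76 ± 0.22 (adjusted p = 0.0244). At this rule 3 of the 14 member probes, of 2 genes, were called between monosome and whole muscle (25% of all 20251 tested probes). Between polysome and monosome 4 of the 14, of 3 genes, were called (25.3%). Leaving out WT monosome array 2 took the monosome against whole muscle difference to 0.64 (adjusted p = 0.0679), and the polysome against monosome difference was then 0.92 (0.00801).

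Dmd, the largest gene of the complex, encodes dystrophin, and its probes did not behave alike. The probe at base 4942 read 6.10, 6.75 and 6.55 in WT whole muscle and 5.65, 6.30 and 6.43 in Het whole muscle, against 5.30, 6.29 and 5.27 on WT polysomes and 4.95, 5.61 and 5.72 on Het polysomes. Every mouse was lower on polysomes than in its whole muscle, although the ranges of the 2 RNA kinds overlapped. Loading was -0.80, -0.46 and -1.28 in WT mice 1 to 3 and -0.70, -0.69 and -0.71 in the Het mice, a mean of -0.78 ± 0.16 (SE, n = 6; limma adjusted p = 0.0142; exact sign-flip p = 0.0313).

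The same Dmd transcript read at base 450 gave 6.17, 6.60 and 6.57 in WT whole muscle and 6.14, 6.67 and 6.63 in Het whole muscle. Its polysome values were 6.05, 7.56 and 6.23 in WT and 5.59, 5.71 and 6.35 in Het. Only WT mouse 2 had a higher polysome than whole muscle value, and the mean loading was -0.21 ± 0.21 (adjusted p = 0.492), or -0.41 without that mouse (0.0982). The loading at base 450 exceeded that at base 4942 in 5 of 6 mice, by 0.56 on average (exact sign-flip p = 0.0938), and by 0.39 without WT mouse 2. For the probe at base 4942, adjusted p rose above 0.05 without Het mouse 1 (0.0594), without Het mouse 3 (0.0572) and with array brightness as a term (0.0747), with values of -0.77, -0.77 and -0.66. It was -0.39 in the authors' value table (0.0138) and -0.40 after normexp background correction (0.00997), and between arrays of different mice within slides 1 and 2 it was -1.09 and -0.57 (0.493 and 0.354).

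**Figure D2:**
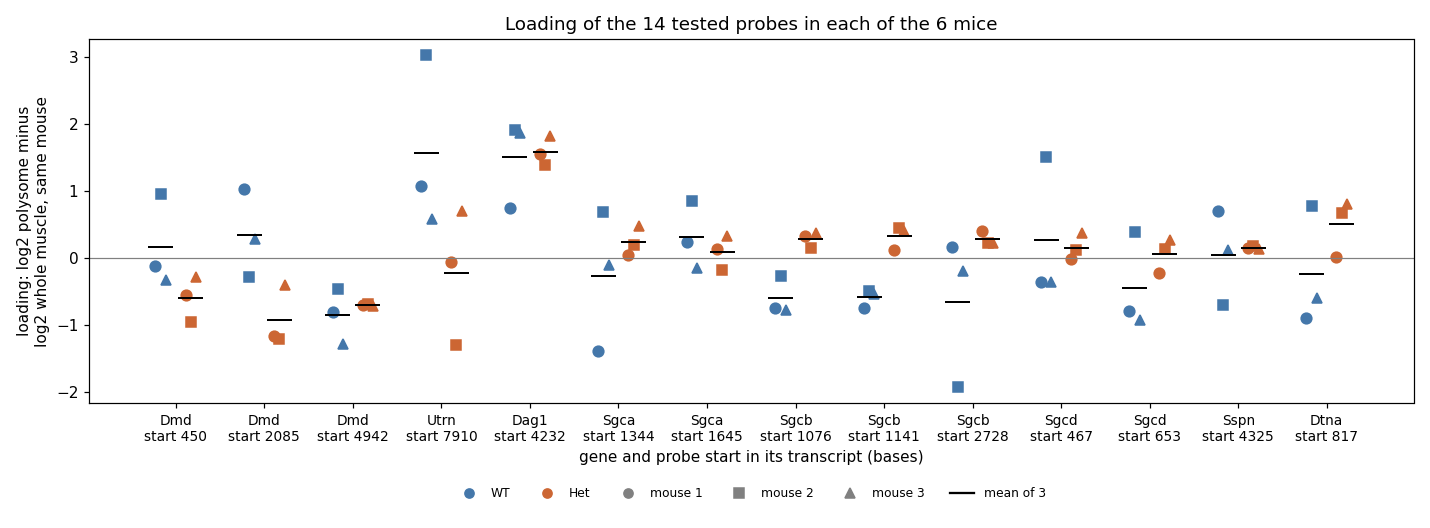
Loading on the log2 scale, polysome minus whole muscle level within a mouse (y axis), for the 14 tested probes named by gene and start in the transcript (x axis), with 3 WT and 3 Het mice as points and bars at their means. Dag1 lies above 0 and Dmd at base 4942 below 0 in all 6 mice, while at the Sgcb probes starting at 1076 and 1141 the WT mice lie below 0 and the Het mice above it.

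Between genotypes no member passed an adjusted p of 0.05 in whole muscle, on polysomes, on monosomes or in loading by limma, where 0.0101%, 0%, 0.479% and 0% of all tested probes did. At an unadjusted p under 0.05, 2 of the 14 probes were counted in whole muscle, 4 on polysomes and 4 in loading, beside 1644, 3021 and 3324 of all 19814, and 6 on monosomes, beside 6706 of 20251. The study's own threshold asked for a log2 difference beyond 1 at an unadjusted p under 0.05. By it 1 of the 14 member probes was called in whole muscle (5.54% of all probes), 2 on polysomes (5.67%), 2 in loading (13.8%) and 5 on monosomes (28.6%). Within a comparison each called probe was of a different gene. The 3 WT and 3 Het values did not overlap for 3 of 14 probes in whole muscle, 4 on polysomes and 4 in loading, beside 13.6%, 21.9% and 25.3% of all probes. The median Het minus WT difference of the 14 probes was -0.08 in whole muscle, -0.07 on polysomes and 0.13 in loading, beside -0.02, 0.04 and 0.15 for all probes.

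**Figure D3:**
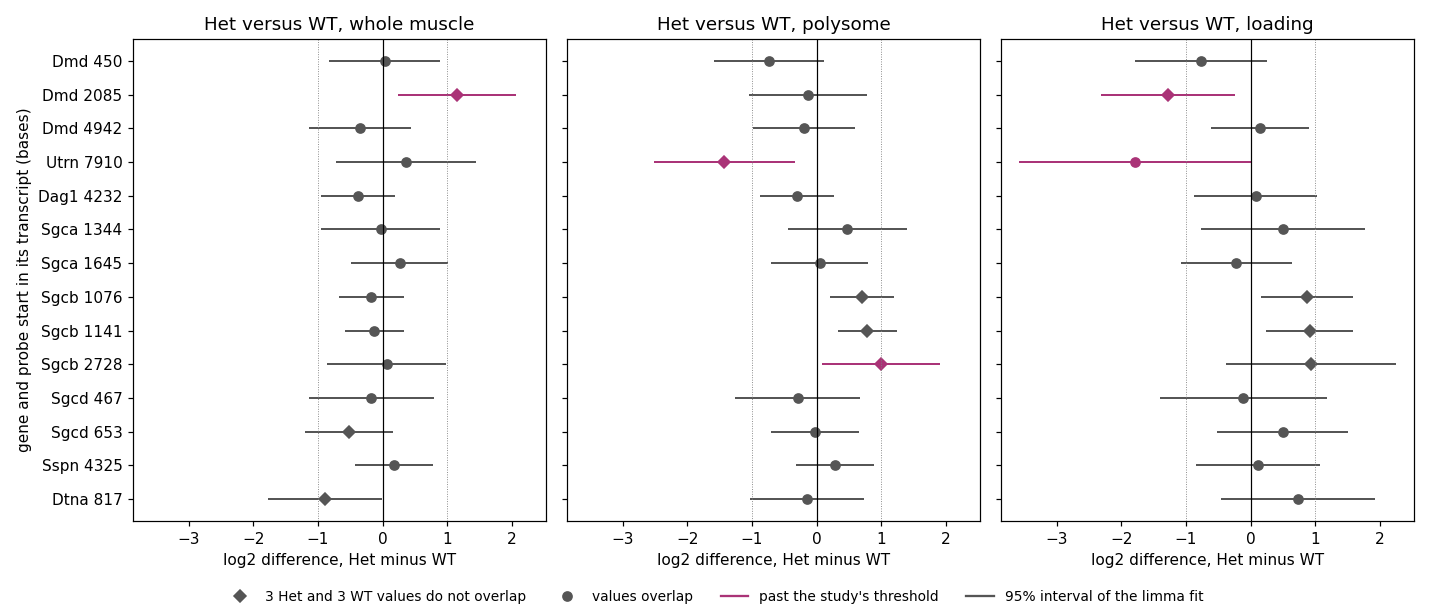
Log2 difference of Het minus WT (x axis) for the 14 tested probes, named by gene and start in the transcript (y axis), in whole muscle, on polysomes and in loading, with 95% intervals of the limma fit. Diamonds mark probes whose 3 Het and 3 WT values do not overlap, and colour marks those past the study's threshold: Dmd at 2085 in whole muscle and loading, Utrn on polysomes and in loading, and Sgcb at 2728 on polysomes.

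All 3 probes of Sgcb read higher on each Het polysome array than on each WT one. The gene encodes beta-sarcoglycan, the subunit around which the sarcoglycan subcomplex is assembled. In whole muscle its probe at base 1076 (chr5:74026579-74026638, minus strand) read 8.14, 8.11 and 8.67 in WT and 8.13, 8.23 and 8.04 in Het, with overlapping ranges. On polysomes it read 7.40, 7.85 and 7.89 in WT and 8.46, 8.38 and 8.42 in Het, so that every Het array exceeded every WT array.

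The probe at base 1141, which lies next to it (chr5:74026514-74026573), read 6.76, 7.06 and 7.27 on WT polysomes and 7.74, 7.91 and 7.78 on Het polysomes. The probe at base 2728 (chr5:74024927-74024986) read 7.89, 6.05 and 7.84 against 8.27, 8.39 and 8.11, again without overlap, although the lowest WT value came from array 2. Het exceeded WT on polysomes by 0.71 ± 0.22, 0.78 ± 0.20 and 1.0003 ± 0.41 (SE) at these 3 probes in that order, or 1.63-fold, 1.72-fold and 2.00-fold. The limma adjusted p was 0.252, 0.217 and 0.299, and the exact permutation p was 0.1 for each, the smallest that 3 against 3 allow. Probes of one gene read the same RNA, so their agreement is not that of 3 separate measurements.

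Loading of Sgcb at base 1076 was -0.74, -0.26 and -0.78 in WT mice 1 to 3 and 0.33, 0.15 and 0.38 in Het mice 1 to 3. At base 1141 it was -0.74, -0.48 and -0.53 in WT and 0.12, 0.46 and 0.41 in Het. In both cases each WT mouse lay below 0 and each Het mouse above it. The Het minus WT differences of 0.88 ± 0.30 and 0.91 ± 0.28 had adjusted p of 0.210 and 0.182 by limma and an exact permutation p of 0.1. Between arrays of different mice within a slide, the same Sgcb differences were 1.37 and 1.23 on slide 1 and 0.51 and 0.47 on slide 2. At base 2728 loading was 0.16, -1.92 and -0.18 in WT and 0.40, 0.23 and 0.23 in Het, with a difference of 0.94 ± 0.55, or 0.30 without WT mouse 2.

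Without WT mouse 2, the Sgcb polysome difference was 0.40 at base 2728, past no threshold, but 0.77 and 0.80 at bases 1076 and 1141. The call at base 2728 was also lost without any one Het mouse, at 0.93 to 1.07. In whole muscle the Het minus WT differences were -0.17, -0.13 and 0.06 in the order of the probes, with 95% intervals from -0.66 to 0.31, from -0.57 to 0.31 and from -0.84 to 0.97. The polysome difference at base 1076 was 0.83 within slide 1 and 0.51 within slide 2, and at base 1141 it was 0.84 and 0.57, each slide having a single array in one genotype. The summed level of the muscle fibre markers was 18.9 to 19.0 on WT and 19.2 to 19.3 on Het polysome arrays, 6 of 6 genes were higher in Het (median 0.34), and 5 of 6 were higher in loading. Their part in the Sgcb differences was not tested.

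Both of those Sgcb probes were lower on monosomes than in whole muscle and on polysomes. On the 16-array scale the probe at base 1076 read 6.95 and 6.61 on WT monosomes and 7.29 and 7.26 on Het monosomes, below every whole muscle array (7.74 to 8.37). Het exceeded WT on monosomes by 0.49 at base 1076 and 0.64 at base 1141, past no threshold. Monosome minus whole muscle was -0.89 ± 0.19 (limma adjusted p = 0.00700), and polysome minus monosome was 0.74 ± 0.19 (0.0133). At base 1141 the differences were -1.11 ± 0.19 (0.00227) and 0.98 ± 0.19 (0.00336), and all 4 stayed past the threshold without WT monosome array 2. At base 2728 monosome minus whole muscle was -1.70 ± 0.80, and -0.25 without that array.

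**Figure D4:**
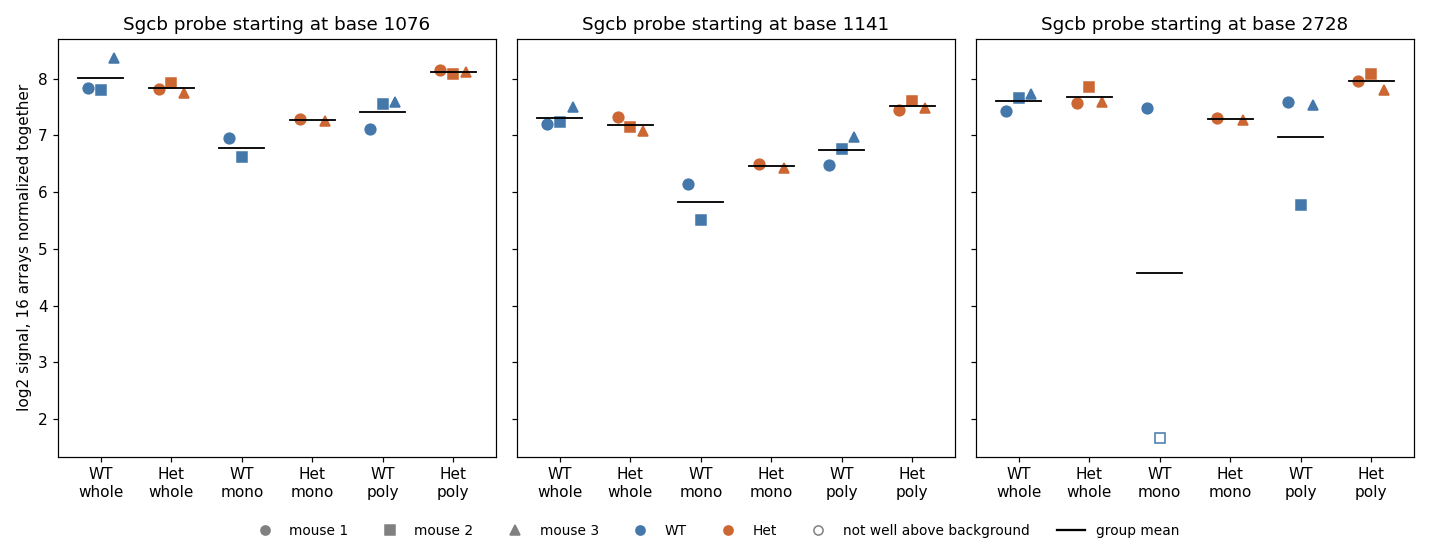
Log2 signal (y axis, 16 arrays normalized together) of the 3 Sgcb probes by genotype and RNA kind (x axis), with mice as marker shapes and bars at group means. On polysomes the 3 Het arrays lie above the 3 WT arrays at each probe, and at base 2728 the open square of WT monosome array 2 lies far below every other array.

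For the other sarcoglycan subunits measured, Sgca and Sgcd, the WT and Het polysome groups overlapped with all arrays, where 21.9% of all probes did not. Once WT array 2 was left out, 3 of their 4 probes did not overlap. How often all probes separated without that array was not counted. Fewer values separate more easily, so nothing is drawn from this. Sgca encodes alpha-sarcoglycan, the subunit found only in muscle. Its probe at base 1344 read 9.86, 11.85 and 10.53 on WT polysomes and 11.16, 11.09 and 11.41 on Het polysomes, and the probe at base 1645 read 12.01, 13.30 and 12.16 against 12.55, 12.26 and 12.81. WT array 2 was the highest of 6 at both, and the Het minus WT differences were 0.47 ± 0.41 and 0.05 ± 0.33. Without WT mouse 2 they were 1.03 and 0.46, the first of which then passed the study's threshold (limma adjusted p = 0.204), and at both probes the remaining WT values lay below every Het value.

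Sgcd encodes delta-sarcoglycan, a core subunit beside beta-sarcoglycan. At base 467 it read 6.63, 8.61 and 6.77 on WT polysomes and 6.73, 7.20 and 7.21 on Het polysomes, with array 2 again the highest WT value. The difference was -0.29 ± 0.43 with all mice and 0.35 without WT mouse 2, and in whole muscle it was -0.18 ± 0.43. At base 653 the 3 Het whole muscle values, 5.59, 5.64 and 5.17, lay below the WT values of 5.89, 5.86 and 6.22, a difference of -0.52 ± 0.30 (limma adjusted p = 0.690). On polysomes this probe read 5.10, 6.25 and 5.30 in WT and 5.36, 5.78 and 5.45 in Het, a difference of -0.02 ± 0.30 with all mice and 0.33 without WT mouse 2, whose array held the only WT value above a Het one.

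Sspn encodes sarcospan, a membrane protein with several spans that steadies the sarcoglycan subcomplex. It read 9.98, 10.74 and 10.58 in WT whole muscle and 10.67, 10.75 and 10.40 in Het whole muscle, and 10.68, 10.05 and 10.71 on WT polysomes against 10.82, 10.93 and 10.54 on Het polysomes. The groups overlapped in both RNA kinds, with Het minus WT differences of 0.17 ± 0.27 and 0.28 ± 0.27 and 95% intervals that reached from -0.42 to 0.76 and from -0.30 to 0.87. Without WT mouse 1 the whole muscle difference of Sspn was -0.05, and without WT mouse 2 the polysome difference was 0.07. On monosomes WT array 2 read 6.39, against 10.07 for WT array 1 and 10.48 and 10.20 for Het, and the difference of 2.11 was 0.27 without it.

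Utrn encodes utrophin, which in adult fibres is concentrated at the neuromuscular junction and is also made in blood vessels. Its whole muscle levels overlapped, at 4.75, 4.47 and 4.95 in WT and 4.93, 5.82 and 4.51 in Het. On polysomes it read 5.84, 7.49 and 5.54 in WT and 4.87, 4.52 and 5.21 in Het. All Het arrays were lower, and WT array 2 was the highest by far.

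The polysome difference of Utrn was -1.43 ± 0.49 (limma adjusted p = 0.267; exact permutation p = 0.1), or 2.69-fold lower in Het. Without WT mouse 2 it was -0.82 and no longer past the study's threshold. Loading was 1.08, 3.03 and 0.59 in WT and -0.06, -1.30 and 0.70 in Het, and its difference of -1.79 ± 0.75 (adjusted p = 0.296) became 0.12 with array brightness as a term and -1.06 without WT mouse 2. The loading call was also lost without WT mouse 1, Het mouse 1 or Het mouse 2, at -2.03, -1.87 and -1.25. Summed levels of the endothelium markers were 11.4, 13.5 and 12.3 on WT polysome arrays 1 to 3 and 11.2, 11.2 and 12.9 on the Het ones, those of the neuromuscular junction markers 9.99 to 10.2 and 9.80 to 10.001, those of the fibroblast markers 16.1 on each WT array and 15.5 to 15.6, and those of the blood markers 16.6 to 17.8 and 15.6 to 16.0. The part of these markers in the Utrn and Sgcb differences was not tested.

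Dtna encodes alpha-dystrobrevin, a cytoplasmic relative of dystrophin that carries syntrophin binding sites. In whole muscle it read 5.68, 5.75 and 5.48 in WT and 5.001, 4.66 and 4.604 in Het, each Het value below each WT value. The difference of -0.88 ± 0.39 (limma adjusted p = 0.601; exact permutation p = 0.1) was short of the study's threshold, and Het arrays 2 and 3 were not well above background for it. This whole muscle difference was -0.31 in the authors' value table and -1.36 with array brightness as a term. On polysomes the groups overlapped, at 4.79, 6.53 and 4.89 in WT and 5.02, 5.34 and 5.41 in Het, a difference of -0.15 ± 0.39. Without WT mouse 2 the Dtna difference was 0.42, and both remaining WT values lay below every Het value. How often all probes separated in this way was not counted. Polysome exceeded monosome by 1.46 ± 0.46 (adjusted p = 0.0366), and by 0.77 without WT monosome array 2 (0.122), which read 1.72 against 4.47, 3.78 and 4.51 on the other monosome arrays.

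The remaining Dmd probe, at base 2085 of a transcript of its own (chrX:82220987-82221046, plus strand), was read near background. In whole muscle it gave 3.01, 4.78 and 3.90 in WT and 5.06, 4.93 and 5.14 in Het, a difference of 1.15 ± 0.41 (limma adjusted p = 0.511; exact permutation p = 0.1). Loading was 1.04, -0.28 and 0.29 in WT and -1.17, -1.21 and -0.40 in Het, a difference of -1.27 ± 0.44 (adjusted p = 0.217). The probes at bases 450 and 4942 of the main transcript differed by 0.03 and -0.34 in whole muscle, with overlapping groups at both. With array brightness as a term the whole muscle difference at base 2085 was 0.35, and without WT mouse 1 it was 0.70. After normexp background correction it was 0.23, and the loading difference was -0.21. The study's threshold was missed without WT mouse 1 or 3 in whole muscle (1.15 without mouse 3), and in loading without WT mouse 1 or 3 or Het mouse 1 or 2 (-1.30 to -0.93).

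The monosome comparison rested on 2 arrays a genotype, and its differences moved with single arrays. Dmd at 2085, Utrn, Sgca at 1645, Sgcb at 2728 and Sspn passed the study's threshold, beside 28.6% of all 20251 tested probes. The differences of Utrn, Sgca, Sgcb and Sspn were -1.51, -1.18, 2.71 and 2.11. Without WT monosome array 2 they were -0.48, -0.24, -0.19 and 0.27, and without WT monosome array 1 -2.53, -2.11, 5.61 and 3.95. For Dmd the difference of -1.64 was -0.24 without Het monosome array 1 and -3.04 without Het monosome array 3. Dmd at 450 minus Dmd at 4942 was 3.67 on WT monosome array 2 and 1.25 on WT polysome array 2, against -0.15 to 0.94 on the other 14. Sgcb at 1076 minus Sgcb at 2728 was 4.94 and 1.77 against -0.53 to 0.65, while the closer pairs of Sgca, 301 bases apart, and Sgcd, 186 bases apart, gave -1.73 and 1.54 on the monosome array, inside the range of the others. On WT polysome array 2 the Sgca pair gave -1.44, inside that range, and the Sgcd pair 2.32, just above its highest value of 2.26.

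**Figure D5:**
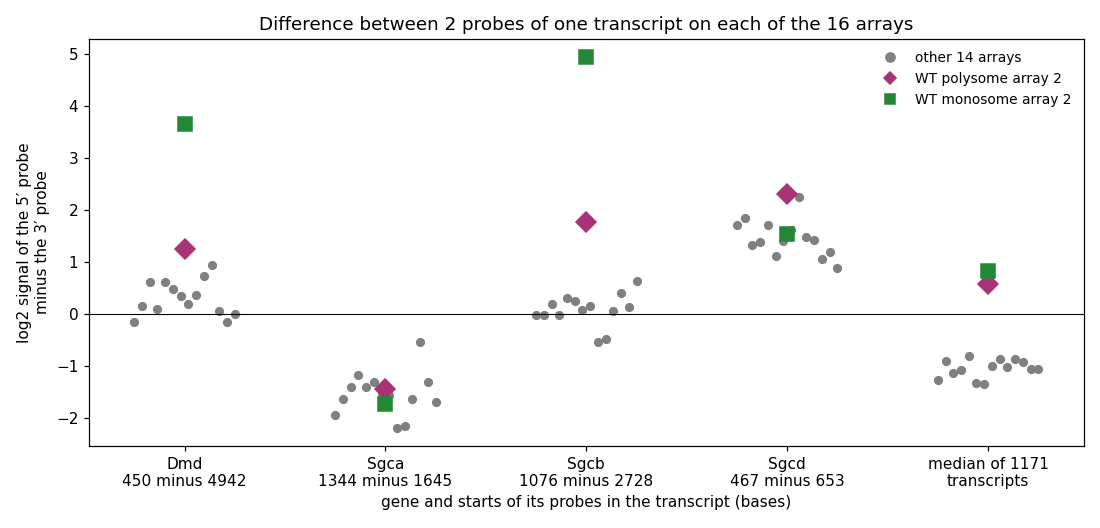
Difference in log2 signal between the upstream (5′) and downstream (3′) probes of one transcript (y axis) on each of the 16 arrays, for 4 member genes and as the median over 1171 transcripts (x axis). WT polysome array 2 and WT monosome array 2 lie above the other 14 arrays for the distant probe pairs of Dmd and Sgcb and for the median, while at the close pairs of Sgca and Sgcd the monosome array lies among the others.

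Partners of the complex were counted from 3 lists. Of 10 other subunits and cytoplasmic partners (further sarcoglycans, syntrophins, beta-dystrobrevin, neuronal nitric oxide synthase, caveolin-3 and Drp2), 7 were tested, and 3 were higher on polysomes than in whole muscle at an adjusted p of 0.05 and 0 lower, beside 25.1% of all probes called in either direction. Their median difference was 0.62, beside 0.09 for all probes. Among those higher, and named after their values were seen, were Sntb2 (0.77 ± 0.22), a syntrophin, and Cav3 (0.66 ± 0.14), the caveolin of muscle. In the same comparison the marker medians were 1.28 for smooth muscle, 0.75 for fibroblast and 0.37 for endothelium. They were -0.51 for muscle fibre and -0.37 for immune cells, and the part of the markers was not tested. Between genotypes Sgce, encoding epsilon-sarcoglycan, was past the study's threshold in loading, at 1.09 ± 0.32 (limma adjusted p = 0.165), beside 13.8% of all probes. On monosomes Nos1 was past it, at 1.47, beside 28.6% of all probes. The Nos1 difference was 1.09 without WT monosome array 2.

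Of 17 genes that build the laminin-binding sugar of alpha-dystroglycan, 15 were tested. Their median polysome against whole muscle difference was 0.12, beside 0.09 for all probes, with 2 called higher and 2 lower, a share near the 25.1% of all probes. In Het against WT, none passed the study's threshold in whole muscle, Dpm3, a subunit of dolichol-phosphate mannose synthase, had a polysome difference of -1.06 ± 0.28 (limma adjusted p = 0.224), and Pomt1, which starts the sugar chain, was higher in loading by 1.15 ± 0.42 (0.242). On monosomes 28.6% of all probes passed that threshold. The genes higher there included B3galnt2, Tmem5 and Dpm1, by 1.74 to 2.34, and 3 were lower (Pomt2, Pomk and Gmppb, with differences of -1.05 to -1.37). Without WT monosome array 2 the differences were 1.302 for Tmem5, -1.46 for Pomt2, 0.59 for B3galnt2, 0.64 for Dpm1, -0.57 for Pomk and -0.86 for Gmppb.

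All 10 matrix ligands and laminin integrin genes were tested. Between polysome and whole muscle RNA 9 of 10 were higher on polysomes, with a median of 0.41 beside 0.09 for all probes. At an adjusted p of 0.05 by limma 2 were called higher and 0 lower, beside 25.1% of all probes called in either direction. In whole muscle 10 of 10 were lower in Het, with a median of -0.34 beside -0.02 for all probes, and only Itgb1, the integrin beta chain that pairs with the alpha 7 chain, passed the study's threshold, at -1.08 ± 0.34 (limma adjusted p = 0.435). In the same comparison 4 of 5 fibroblast markers were lower (median -0.35), 3 of 3 smooth muscle markers (-0.43), 3 of 4 endothelium markers (-0.29) and 3 of 3 tested immune cell markers (-1.51), and their part in it was not tested. On polysomes 5 of the 10 were higher and 5 lower, with a median of 0.04, and 0 passed. On monosomes, where 28.6% of all probes passed the study's threshold, Lama2 was past it and higher by 1.23. Lama2 is the laminin chain that alpha-dystroglycan binds in muscle. Bgn, Itga7 and Itgb1 were also past it, at -1.38, -1.03 and -1.11. Without WT monosome array 2 the differences were 0.60 for Lama2, -0.40 for Bgn, -1.06 for Itga7 and -0.84 for Itgb1. Between genotypes none of these genes passed an adjusted p of 0.05 by limma with all arrays.

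The genes whose levels ran most like each member over the 12 whole muscle and polysome arrays were taken by Pearson's r among 11478 probes well above background on all 12, as a description over arrays that share genotype, RNA kind and normalization. They were Hmgb1 and Dad1 for Dag1 (r = 0.977 for each), Psg23 (0.959) and Rab26os (0.946) for Dmd, and Flt3l (0.952) and Diap1 (0.945) for Utrn. For the sarcoglycans they were Lrtm1 (0.968) and Tprkb (0.945) for Sgca, Nif3l1 (0.920) and Krba1 (0.871) for Sgcb, and Zfand6 (0.954) and Rfc4 (0.935) for Sgcd. Sspn ran most like Dus4l (0.960) and Ppp2r5a (0.959), and Dtna most like Ipo5 (0.929) and Ercc1 (0.915). Between probes of one member, r over the same arrays was 0.940 for Sgcb at 1076 and 1141, 0.431 for Sgcb at 1076 and 2728, 0.698 for Dmd at 450 and 4942, 0.658 for Sgca and 0.695 for Sgcd.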

How the data were processed

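RNA from the gastrocnemius of Eif6+/- and wild-type mice was hybridised by the authors to 1-colour (Cy3) Agilent arrays, 1 array per RNA sample, and scanned with Agilent Feature Extraction 11.0.1.1, with probes placed on mm9. The deposited scanner files hold spot intensity, raw and background-subtracted, and other columns deposited with them are 0 or 1 flags of spot quality. A second deposited table by the authors holds log2 values, quantile normalized with no background subtracted, and was used as an alternative.

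Processed intensity was put on the log2 scale and quantile normalized over non-control spots, over the 12 whole muscle and polysome arrays or all 16, leaving out spots with quality flags, and averaged per probe. Probes well above background (at least 0.5 of their spots) on every array of 1 group were tested, which left 19814 and 20251. Differences were tested with limma 3.58.1 in R 4.3.3 (lmFit and eBayes, Benjamini-Hochberg over all tested probes), for loading on 1 ratio per mouse. Arrays were paired by the replicate number in the sample titles, which was taken to mark one animal. Deviations of a mouse's 2 arrays from their group means correlated by 0.0589 to 0.485. The study's threshold was a log2 difference over 1 with unadjusted p under 0.05, and an adjusted p of 0.05 was used between RNA kinds. Exact permutation and sign-flip tests were two-sided. Scripts were tested on simulated data. Arrays lay on 2 slides, and no mouse had both whole muscle and polysome arrays on one slide.

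Every probe of the 8 genes was named. The tested probe with the highest mean signal stood for its gene, and partner genes were named where past the study's threshold between genotypes, except for some results that are not reported here. Their monosome values without WT array 2 were added after seeing the data. The members and lists were chosen with earlier results of these data known. Alternatives were other scaling, background correction, filters, slide and replicate blocks, array brightness, the methods' t-test, slides taken singly and each mouse left out.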

Additional observations from a re-analysis of the deposited data

Results flagged for a closer look

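Loading of Sgcb was below 0 in each of 3 WT mice and above 0 in each of 3 Het mice at the neighbouring probes starting at bases 1076 and 1141. The Het minus WT difference was 0.88 and 0.91 on the log2 scale, and tested by limma over all probes it missed the adjusted threshold (adjusted p = 0.210 and 0.182). Between arrays of different mice, it was 1.37 and 1.23 within slide 1 and 0.51 and 0.47 within slide 2. At the third Sgcb probe, starting at base 2728, WT mouse 1 was above 0 (0.16), and the difference of 0.94 was 0.30 without WT mouse 2. The 3 WT and 3 Het loading values did not overlap for 25.3% of all tested probes.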

How the results depend on the processing

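Counts of called member genes are given in the order whole muscle, polysome and loading for Het against WT, where 1, 2 and 2 were called. A gene was called where any of its tested probes was. Of all probes, 5.54%, 5.67% and 13.8% were called. Normexp background correction called 0, 0 and 0 genes (0.257%, 1.22% and 3.6% of all probes), as did the authors' table (0.283%, 1.35% and 4.11%). The methods' t-test also called 0, 0 and 0 (2.02%, 2.18% and 8.57%). With array brightness as a term 2, 0 and 0 were called (3.73%, 3.72% and 4.22%). Probes above background on all arrays gave 0, 1 and 0 (2.17%, 4.86% and 11.9%). Within a slide 1 genotype had a single array and loading compared arrays of different mice, so calls are not counted there. With slide as a block, polysome and loading gave 1 each (3.59% and 10.7% of all probes). Loading without a filter gave 1 (7.31%), and polysome with 16 arrays normalized together gave 1 (5.48%). Leaving out 1 mouse gave 0 to 1, 1 to 3 and 0 to 3. The shares of all probes were then 2.6% to 9.75%, 2.97% to 10.4% and 10.7% to 15.3%. Polysome against whole muscle, with 2 (25.1%), gave 1 with brightness (12.1%) and 1 to 2 without 1 mouse (11.7% to 27.7%). Monosome Het against WT, with 5, gave 2 with 75th percentile scaling, normexp, the authors' table or the stricter filter, 1 without a filter, 3 with a slide block and 0 to 8 without 1 array. Polysome against monosome, with 3, and monosome against whole muscle, with 2, gave 1 to 5 each without 1 array, and the latter gave 4 without WT polysome array 2 and WT monosome array 2 together, chosen after seeing the data.

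With replicate number as a block, whole muscle gave 1 and polysome 2 (6% and 5.68% of all probes). The same counts came with mouse as a random block (5.65% and 5.63%). Without pairing, loading and polysome against whole muscle gave 2 each (10.7% and 24.5%). With mouse as a replicate block the monosome comparisons gave 4, 3 and 3 (31%, 37.5% and 36%). Replicate numbers do not pair WT with Het mice.

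Among results past a threshold, the sign turned for Utrn loading with array brightness as a term (0.12 against -1.79) and for Sgcb at base 2728 on monosomes without WT replicate 2 (-0.19 against 2.71; 5.61 without WT replicate 1), and the cause was not tested. Of 98 probe results, past a threshold or not, 53 kept their sign under every alternative run and the others did not, Dtna on polysomes among them (-0.15, and 0.42 without WT replicate 2). Signal over background limits the readings of Dmd at base 2085, Utrn and Dtna, which were not well above background on some arrays.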
